A study of Mus musculus with 18 samples.

Results

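Islets of obese, diabetes-prone C57BL/KsJ db/db mice were compared between 16 and 6 weeks of age. The samples were taken by their labels, 2 arrays of 16-week and 2 arrays of 6-week db/db islets, and make up 4 of the 18 samples of the series. Both ages carry the same db/db genotype on the same KsJ strain, so age and the duration of obesity and diabetes cannot be told apart. The other groups used here, for the same age interval, were lean KsJ control mice (2 arrays at 16 weeks and 2 at 6 weeks) and C57BL/6J ob/ob mice (2 arrays at 16 weeks and 2 at 6 weeks), which lack leptin and are labelled as resistant to diabetes. Lean 6J mice of both ages (2 arrays each) entered only the shared estimate of the spread, and 2 further 16-week KsJ arrays stood in a separate table without a 6-week partner. The mice came from breeding colonies with free access to food, and islets were picked by hand before total RNA was extracted. The labels give no sex, no blood glucose and no word on pooling. With 2 arrays per group the precision is low, and the p-values reflect how far these samples scatter, which may be technical.

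The db mutation removes the signalling form of the leptin receptor, and the mice overeat and become obese and insulin resistant. On the KsJ background their beta cells, the insulin-producing majority of the islet, first multiply and secrete more, and later lose function as blood glucose climbs. A mature beta cell is kept by transcription factors such as MafA and senses glucose through the transporter GLUT2 and mitochondrial oxidation. Islets also hold alpha, delta and PP cells, capillaries and resident macrophages. Hand-picked preparations can carry fragments of the surrounding exocrine pancreas.

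Signals are the log2 values deposited per transcript cluster, and changes are 16-week minus 6-week values in log2 units, where 1 unit is a doubling, with their SE from limma. The hormone genes showed islet tissue on all 4 arrays. Insulin 2 (Ins2) stood at 12.01 and 11.97 in 16-week islets and at 12.04 and 12.08 in 6-week islets, and glucagon (Gcg) at 13.25 and 13.12 against 13.25 and 13.27. The leptin receptor gene Lepr stood at 3.04 and 4.14 against 3.10 and 2.66, and its gene-level signal does not check a mutation that alters splicing. The arrays of a db/db group correlated at 0.969 at 16 weeks and at 0.977 at 6 weeks. Outside the comparison, the lean KsJ arrays of 16 weeks (0.902) and the lean 6J arrays of 6 weeks (0.931) were less alike, and replicate 2 of the 6-week ob/ob islets correlated better with a lean 6J array of that age (0.989) than with its partner (0.971). The sex-linked genes Xist and Uty were looked at after the data were seen. All 4 db/db arrays had high Xist (8.46 to 9.31) and low signal of the Y-linked gene Uty (2.29 to 3.60), and the lean KsJ islets had 1 array with high and 1 with low Uty at each age. In ob/ob islets Uty was low at 16 weeks (2.21 and 2.33) and high at 6 weeks (7.25 and 7.61), so sex and age cannot be told apart there.

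Genes of the intestine and of the acinar pancreas differed between the db/db arrays and are given here because they move with age. The 20 tested genes of an enterocyte list averaged 5.87 and 8.70 on the 16-week arrays and 4.86 and 4.25 on the 6-week arrays, with sucrase-isomaltase (Sis) at 5.62 and 9.03 against 3.47 and 2.79. For 17 of the 20 genes both 16-week arrays lay above both 6-week arrays, against 18.2% of all genes. The 29 tested acinar genes averaged 9.27 and 10.30 against 7.33 and 9.06, with the elastase-family gene Ctrc at 10.27 and 11.54 against 8.09 and 9.86. Of the 29, 21 were higher on both 16-week arrays, against the same 18.2% of all genes. Replicate 2 was the richer of these 16-week arrays in both lists. In the separate table, whose values were made apart from these, Sis stood at 9.84 in 16-week db/db islets, against 2.28 in 16-week lean KsJ islets. Ctrc ran the other way there, at 11.59 in db/db islets against 13.02 in lean KsJ islets. The part of these tissues in the results was tested only by 2 further fits, which took the enterocyte mean, or that mean together with the acinar mean, as a covariate.

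Of 15526 genes tested, 4 rose and 6 fell between 6 and 16 weeks at an adjusted p below 0.05. These are 0.0258% and 0.0386% of the genes. At an unadjusted p below 0.05, 463 genes (2.98%) were higher and 719 (4.63%) lower in 16-week islets, and the median change over all genes was -0.015. The genes that rose include an enzyme of amino acid metabolism and 2 lysosomal genes, and those that fell are, with 1 exception, parts of the mitotic machinery.

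The strongest rise by its p-value was that of Bcat1, the cytosolic enzyme that removes the amino group of branched-chain amino acids. Its signal was 5.73 and 5.39 in 16-week islets, against 3.53 and 3.33 in 6-week islets, a change of 2.13 ± 0.21 (SE; 4.37-fold; adjusted p = 0.00859, limma). Gpnmb, a glycoprotein of lysosome-rich macrophages, stood at 8.24 and 6.30 against 3.95 and 3.43, a change of 3.58 ± 0.50 (11.9-fold; adjusted p = 0.0366). The 2 arrays of 16 weeks differed widely in this gene, but both lay above the 6-week arrays. In the separate table, whose values were made apart from these, Gpnmb stood at 4.42 in 16-week db/db islets, against 4.24 in 16-week lean KsJ islets. With the tables joined its change was 3.01 and it was no longer called (adjusted p = 0.143), while the other 9 genes were. Ctsk, which encodes the lysosomal collagenase cathepsin K, had 4.96 and 4.20 against 2.30 and 2.55, a change of 2.15 ± 0.28 (adjusted p = 0.0309). Its 6-week signals lay below the filter on low signal (2.99), and its fold is left out. Sh2d5, an SH2-domain adaptor gene, had 7.21 and 6.97 against 5.79 and 5.84, a change of 1.28 ± 0.15 (2.42-fold; adjusted p = 0.0236).

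Pbk, a mitotic protein kinase gene, fell by 2.26 ± 0.27 on the log2 scale (adjusted p = 0.0236, limma), to 4.19 and 3.90 in 16-week islets, against 6.15 and 6.46 in 6-week islets. Tpx2, whose protein builds the spindle and activates Aurora A, fell by 2.21 ± 0.32 (adjusted p = 0.0448), with 4.30 and 4.48 against 6.53 and 6.67. The kinetochore and spindle gene Knstrn fell by 1.99 ± 0.28, with 4.42 and 4.66 against 6.91 and 6.14. The cytokinesis motor gene Kif20a fell by 1.78 ± 0.24, with 4.02 and 4.28 against 5.93 and 5.94, and the kinetochore scaffold gene Knl1 fell by 1.45 ± 0.20, with 4.03 and 3.70 against 5.27 and 5.36. The exception was Cdk15, a little-studied kinase of the cyclin-dependent family, which fell by 1.59 ± 0.24, with 3.39 and 3.60 against 5.08 and 5.09. In each of the 6 genes the groups were separated by more than the distance between the arrays of either group.

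Each db/db array was left out in turn, where the lone array left is assumed to vary like those of the other groups. Without 16-week replicate 1 Bcat1 alone was still called, and without 16-week replicate 2 Bcat1, Ctsk, Gpnmb and Sh2d5 were. Without either 6-week array none of the 10 was called, although all 10 kept their sign in each of these fits. Without the lean KsJ and lean 6J arrays that stood apart, which do not touch the db/db values but add to the shared spread, 41 genes (0.264%) were called higher and 38 (0.245%) lower, all 10 among them. Of the intestinal lists, the 41 higher genes include Rbp2 of the enterocyte list and Muc2, Fcgbp and Clca1 of a goblet, Paneth and enteroendocrine list. The other list genes among them are Ctsk, Gpnmb, Lgals3 and Cd36. Most of the 41 are in no list, among them those with the smallest p-values, Sult6b2 (3.48) and Slc26a3 (3.40). The lists are short, so a gene outside them can still be intestinal. The part of intestinal tissue in the 41 was not tested.

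The rule for named genes filled 12 places in each direction with the smallest p-values after the called genes. On the higher side these were Tmem59l (1.70 ± 0.27), Vstm2a (3.27 ± 0.55), Cd36 (2.53 ± 0.46), Lingo4 (1.37), Lpin2 (0.99), Sgip1 (1.23), Mctp1 (0.94) and Mdga1 (1.10), with adjusted p-values from 0.0629 to 0.120. Vstm2a, an immunoglobulin-domain gene, had 7.66 and 7.62 in 16-week islets, against 4.43 and 4.32 in 6-week islets. Lpin2 encodes a phosphatidate phosphatase of lipid synthesis, and Mdga1 and Lingo4 encode surface proteins best known from neurons. On the lower side these were Anln (-1.97), Cenpi (-1.48), Cdca2 (-1.08), Stmn1 (-1.41), Dtl (-1.92) and Top2a (-2.09), with adjusted p-values from 0.0524 to 0.0692. Anillin (Anln) shapes the cleavage furrow, Cenpi sits at the centromere, Stmn1 destabilizes microtubules, Dtl limits replication licensing and topoisomerase II alpha (Top2a) untangles replicated DNA. For all 24 genes the 16-week arrays lay on 1 side of the 6-week arrays. The rule required this of the called genes, and a choice by smallest p favours it in the rest.

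**Figure D1:**
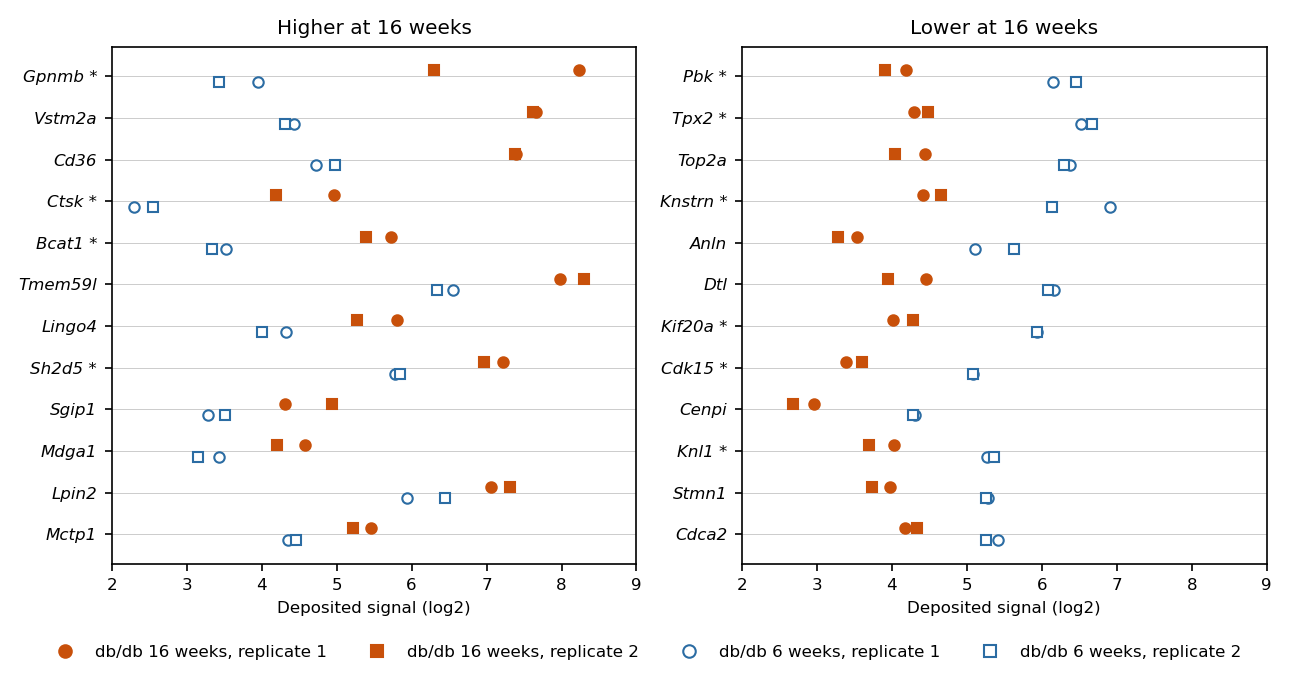
Deposited log2 signal of the 12 ranked genes higher (left panel) and the 12 lower (right panel) in 16-week db/db islets. Filled orange symbols are the 16-week arrays and open blue symbols the 6-week arrays, circles replicate 1 and squares replicate 2, and asterisks mark adjusted p below 0.05. In every gene the orange symbols lie beyond the blue ones, which the rule required of the called genes. The widest gap between 16-week replicates is in Gpnmb (8.24 and 6.30).

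The genes of cell division formed the clearest block. A list of 36 genes of DNA replication and mitosis had 34 members tested, with Birc5 below the filter and Ccnb1 not analysed here. Kif20a and Tpx2 fell, 29 of the 34 were lower at an unadjusted p below 0.05, against 4.63% of all genes, and 0 were higher. Both 16-week arrays lay below both 6-week arrays in 32 of the 34, against 21.2% of all genes. The median change was -1.50, with changes from -2.54 to -0.42. List members averaged 4.95 and 4.68 in 16-week islets, against 6.27 and 6.24 in 6-week islets. In whole islets, fewer dividing cells and less RNA per cell cannot be told apart.

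Cyclin B2 (Ccnb2), which drives entry into mitosis, differed by -2.54 ± 0.44 (adjusted p = 0.0814), with 4.07 and 3.52 against 6.40 and 6.26. The proliferation marker Mki67 stood at 4.92 and 4.66 in 16-week islets, against 7.48 and 6.96 in 6-week islets (-2.43 ± 0.47, adjusted p = 0.113). Ube2c, the ubiquitin-conjugating enzyme of the anaphase-promoting complex, had 4.03 and 3.98 against 5.86 and 6.14 (adjusted p = 0.0698). Of the replication helicase genes, Mcm5 differed by -2.05 and Mcm4 by -0.50, and the sliding clamp gene Pcna by -0.52, these 3 chosen after their values were seen. All 6 genes were lower on both 16-week arrays, and none passed over all genes. Without the lean arrays that stood apart, 10 of the 34 list genes were called lower, namely Mki67, Top2a, Ccnb2, Bub1, Tpx2, Kif11, Kif20a, Ube2c, Prc1 and Ect2. Without 1 db/db array at a time, 23 to 27 of the 34 had an unadjusted p below 0.05.

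Many mitotic genes share a promoter architecture in which NF-Y binds CCAAT boxes and the MuvB-containing complexes DREAM and MMB bind a TTTGAA element near the start of transcription. The 150 bases before the annotated start were searched in RefSeq promoters (GRCm38.p6) on both strands, and 28 of the 34 list genes had an entry. CCAAT was found in 24 of the 28 (85.7%), in 14 of them more than once. Of all 27025 promoters 25.3% held CCAAT, and 6.41% held it more than once. TTTGAA, which does not overlap CCAAT, was found in 9 of the 28 (32.1%) and in 9.24% of all promoters. These counts describe letters and were not measured in the islets.

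Windows of 3 list genes with large differences are printed to show the spacing of the boxes, with each CCAAT, or ATTGG where it lies on the other strand, in capitals. Ccnb2 lies on the minus strand of chromosome 9 (chr9:70421555-70421704), Top2a on the minus strand of chromosome 11 (chr11:99024190-99024339) and Ube2c on the plus strand of chromosome 2 (chr2:164769779-164769928), each read 5′ to 3′ towards the gene.
Ccnb2: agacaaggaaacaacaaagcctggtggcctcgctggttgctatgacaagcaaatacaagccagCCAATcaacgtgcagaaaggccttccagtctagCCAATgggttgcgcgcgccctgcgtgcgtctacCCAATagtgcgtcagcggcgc
Top2a: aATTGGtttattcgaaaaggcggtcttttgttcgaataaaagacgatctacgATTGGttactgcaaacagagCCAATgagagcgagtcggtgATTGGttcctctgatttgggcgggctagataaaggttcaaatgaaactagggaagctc
Ube2c: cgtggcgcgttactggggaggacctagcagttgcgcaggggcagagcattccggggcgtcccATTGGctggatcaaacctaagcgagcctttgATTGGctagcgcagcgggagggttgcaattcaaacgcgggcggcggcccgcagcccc
The 3 boxes of Ccnb2 begin 33 bases apart from one to the next, at -87, -54 and -21 from the start. Top2a holds 4, the nearest 3 of them 20 bases apart, and the 2 boxes of Ube2c begin 31 bases apart.

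The same age interval was set beside this in lean KsJ and ob/ob islets. Cell cycle genes were also lower at 16 weeks in lean KsJ islets, where the list median was -0.88 and 18 of 34 genes had an unadjusted p below 0.05. All genes shifted there, however, with a median of -0.26 and 23.4% lower, and after median centring the all-gene median turned to 0.10 and the list median was -0.51. In ob/ob islets the list median was 0.10. There 0 of 34 genes were lower at an unadjusted p below 0.05, against 2.18% of all genes, and 0 were higher, against 1.71%. Mki67 stood at 6.01 and 7.03 in 16-week ob/ob islets, against 7.04 and 6.36 in 6-week ob/ob islets. The ob/ob median was -0.20 without 6-week replicate 2, the array that resembled lean islets, and 0.34 without replicate 1.

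The difference of the age changes was tested gene by gene. Against ob/ob islets 24 of the 34 list genes had a more negative age change in db/db islets at an unadjusted p below 0.05, against 2.87% of all genes. The list median of the difference was -1.49, and without ob/ob 6-week replicate 2 it was -1.17 with 16 genes. Against lean KsJ islets 5 of the 34 did so, against 2.22% of all genes, with a list median of -0.44 where all genes had 0.24. The all-gene median of that difference was -0.13 after median centring and 0.02 after quantile normalization, and the list then had -0.82 with 9 genes and -0.65 with 7 genes. None of the 34 passed over all genes in either test by limma.

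**Figure D2:**
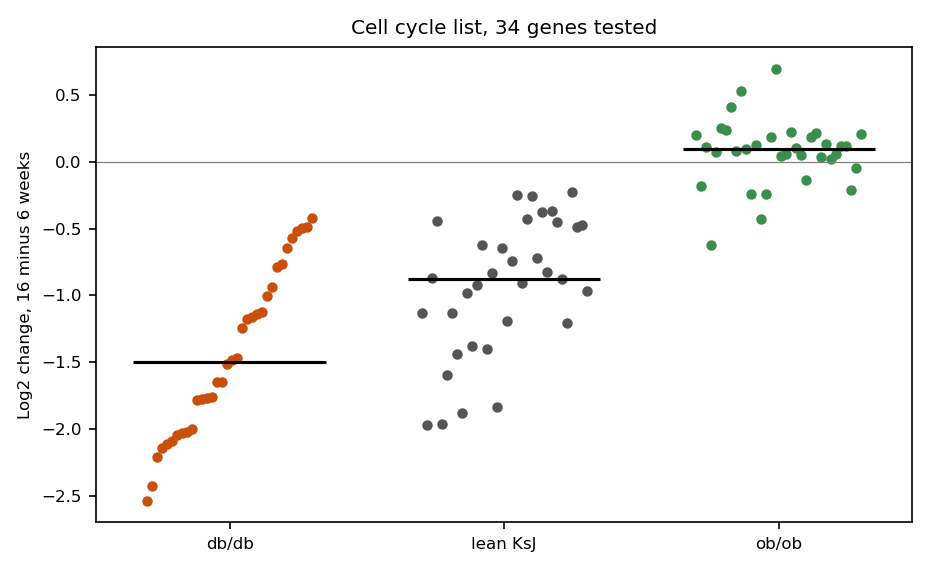
Log2 change from 16 minus 6 weeks of each of the 34 tested cell cycle genes in db/db, lean KsJ and ob/ob islets, with genes in the same left-to-right order in each group and a black bar at the median. All db/db and lean KsJ changes lie below 0 (medians -1.50 and -0.88), and the ob/ob changes scatter around 0 (median 0.10).

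Regulators of the G1 phase differed less than the cell cycle list, with a median change of -0.24 against -1.50. Of 17 tested cyclins, cell cycle inhibitors and senescence genes 0 were called. At an unadjusted p below 0.05, 4 were lower (23.5%), against 4.63% of all genes, and 1 was higher (5.88%), against 2.98%. The Polycomb enzyme gene Ezh2, which silences the Cdkn2a locus, had 5.68 and 5.65 in 16-week islets, against 6.55 and 6.47 in 6-week islets (-0.84 ± 0.17). Cdkn2a itself, which encodes the inhibitors p16 and p19, was lower too, with 4.12 and 4.27 against 4.82 and 4.80 (-0.62 ± 0.17). The G1 kinase gene Cdk4 had 9.39 and 9.48 against 9.86 and 9.92 (-0.46 ± 0.16). Cdkn1c differed by -0.87 and the p53-induced gene Trp53inp1 by 0.65, and the arrays of each gene were separated by age.

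Genes of activated macrophages were higher in 16-week islets. Of 27 tested macrophage and myeloid genes, Ctsk and Gpnmb rose, 6 were higher at an unadjusted p below 0.05, against 2.98% of all genes, and 0 were lower. Both 16-week arrays lay above both 6-week arrays in 13 of the 27, against 18.2% of all genes, and the list median was 0.49. Galectin-3 (Lgals3) stood at 5.87 and 5.82 in 16-week islets, against 3.85 and 4.09 in 6-week islets (1.88 ± 0.44, adjusted p = 0.200). The endotoxin co-receptor gene Cd14 had 6.53 and 5.51 against 4.28 and 5.03 (1.36 ± 0.44). The lipid receptor gene Trem2, a marker of lipid-laden macrophages, had 5.13 and 4.18 against 3.63 and 3.95 (0.86 ± 0.29). The macrophage elastase gene Mmp12, chosen after its values were seen, had 7.70 and 5.52 against 4.20 and 4.45 (2.29 ± 0.51). In the separate table the 16-week db/db array and its lean KsJ partner were close in some of these genes and apart in others. Trem2 stood there at 4.78 in db/db islets against 4.91 in lean islets, Cd14 at 5.64 against 5.54 and Ctsk at 4.32 against 4.10. Lgals3 stood at 6.69 against 5.09 and Mmp12 at 4.62 against 3.51.

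Not all macrophage genes were higher. The receptor gene Csf1r, needed by all tissue macrophages, differed by 0.01 ± 0.29, the complement gene C1qa by -0.22 ± 0.18 and the macrophage surface receptor gene Adgre1 by 0.47 ± 0.38, and these 3 were chosen after their values were seen. The 16-week replicates were not alike. Replicate 1 had more Gpnmb, Cd14, Trem2 and Mmp12 than replicate 2, and also more of the inflammatory genes Il1b (8.17, against 4.10 on replicate 2) and Cxcl2 (6.69, against 3.66 on replicate 2). In 6-week islets Il1b stood at 4.60 and 4.47 and Cxcl2 at 3.59 and 3.47, so the difference in these cytokines came from 1 array. The number of list genes higher at an unadjusted p below 0.05 was 3 without 16-week replicate 1, 11 without 16-week replicate 2, 3 without 6-week replicate 1 and 7 without 6-week replicate 2. It was 8 with the enterocyte mean as a covariate and 11 with the acinar mean added. Enterocyte means were 5.87 on 16-week replicate 1 and 8.70 on 16-week replicate 2. The part of intestinal tissue in the macrophage genes was not tested beyond the covariate fits.

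In lean KsJ islets the macrophage list had a median of -0.46, and in ob/ob islets 0.11. The age change was more positive in db/db than in lean KsJ islets for 11 of the 27 genes at an unadjusted p below 0.05, against 10.9% of all genes, and for 5 after median centring or quantile normalization. It was more positive than in ob/ob islets for 5, against 2.03% of all genes. Gpnmb stood at 3.19 and 4.14 in 16-week lean KsJ islets and at 3.48 and 3.38 in 16-week ob/ob islets, below both 16-week db/db arrays. T and B cell genes did not follow the macrophage genes. All 16 tested lymphocyte genes were below 0 with a median of -0.84, where 8087 of all 15526 genes were below 0. Of the 16, 0 were called, and Cd28 and Cd2 (12.5%) were lower at an unadjusted p below 0.05, against 4.63% of all genes. The list averaged 3.83 and 4.03 in 16-week islets, against 5.47 and 4.06 in 6-week islets, so 6-week replicate 1 alone was high, with the T cell receptor gene Cd3e, chosen after its values were seen, at 7.31.

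**Figure D3:**
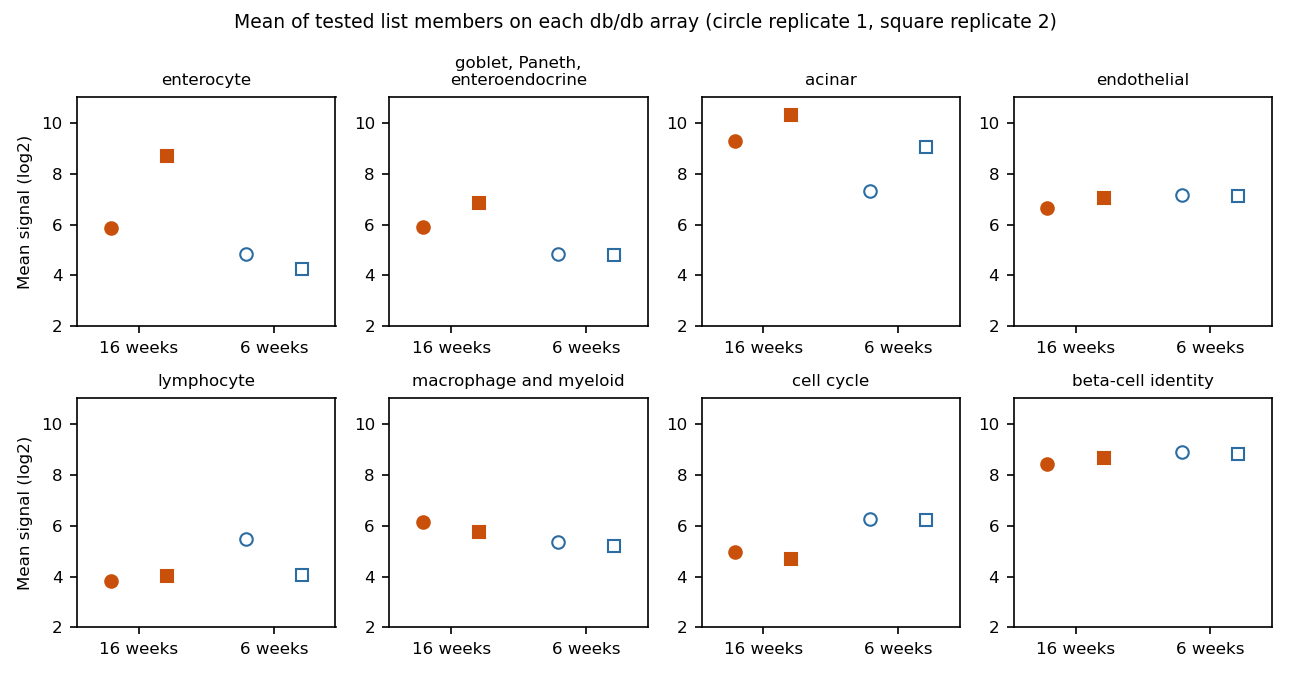
Mean log2 signal over the tested members of 8 gene lists on each db/db array, 16-week arrays left (filled orange) and 6-week arrays right (open blue), with circles for replicate 1 and squares for replicate 2. Cell cycle means separate by age (4.95 and 4.68 against 6.27 and 6.24), enterocyte signal is highest on 16-week replicate 2 (8.70), and lymphocyte signal on 6-week replicate 1 (5.47).

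Genes induced by glucose were among those with more signal in 16-week islets. Their common activator ChREBP is switched on by glucose metabolites and binds paired E-boxes. Of 16 tested members of the list 0 were called, 5 were higher at an unadjusted p below 0.05, against 2.98% of all genes, and 0 lower. The list median was 0.10, and 0.24 without 16-week replicate 1, 0.23 without 16-week replicate 2, 0.13 without 6-week replicate 1 and 0.31 without 6-week replicate 2. The arrestin-family gene Arrdc4 stood at 9.17 and 8.78 in 16-week islets, against 6.96 and 7.35 in 6-week islets (1.82 ± 0.39, adjusted p = 0.150). Its paralog Txnip, which binds thioredoxin and restrains glucose uptake, stood at 12.23 and 12.19 against 10.69 and 10.99 (1.37 ± 0.33, adjusted p = 0.224). In 16-week lean KsJ islets Txnip was at 10.94 and 10.21 and in 16-week ob/ob islets at 10.97 and 10.65, so the 16-week db/db arrays were the highest of these groups. The lipase gene Pnpla3 (0.94), the lipoprotein lipase inhibitor gene Angptl4 (1.05) and the pyruvate kinase gene Pklr (0.75) made up the other 3 genes. The count of 5 was 3 without 16-week replicate 2, 3 without 6-week replicate 2 and 3 with the enterocyte mean as a covariate.

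The Txnip promoter shows the paired E-boxes that carbohydrate response elements consist of. In the same kind of 150-base window the motif of CACGNG, 5 further bases and CACGNG, searched on both strands with N for any base, occurred in 9 of 27025 promoters (0.0333%) and in 1 of the 12 list genes with an entry, which was Txnip. The window lies on the plus strand of chromosome 3 (chr3:96557807-96557956), and capitals mark the match, which begins at -85.
Txnip: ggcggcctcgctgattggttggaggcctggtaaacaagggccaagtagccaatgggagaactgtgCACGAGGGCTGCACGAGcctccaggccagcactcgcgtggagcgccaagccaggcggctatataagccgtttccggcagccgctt
No such match lay in the window of Arrdc4, which says nothing about elements elsewhere.

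Lipid and oxygen-responsive genes were described in the same way. Cd36, the fatty acid translocase, stood at 7.39 and 7.38 in 16-week islets, against 4.73 and 4.98 in 6-week islets, and was called without the lean arrays that stood apart. Cd36 is also made by macrophages, endothelium and enterocytes. Of 23 tested genes of fatty acid handling 0 were called and 4 were higher at an unadjusted p below 0.05, against 2.98% of all genes, with the lipid droplet gene Plin2 at 0.73 and the carnitine transferase gene Cpt1a at 0.67, and without 6-week replicate 2 the count was 1. The list median was 0.26, and -0.03 when enterocyte and acinar means were covariates. Of 26 tested glycolysis and hypoxia genes 0 were called, 4 were higher at an unadjusted p below 0.05, against 2.98% of all genes, and 1 was lower, against 4.63%. Pfkfb3, which makes the activator of phosphofructokinase, had 6.00 and 5.54 against 5.02 and 4.27 (1.12 ± 0.37). The oxygen sensor gene Egln3, a target of hypoxia-inducible factor, had 5.92 and 5.98 against 4.57 and 4.46 (1.43 ± 0.56), and the collagen hydroxylase gene P4ha2 had 7.37 and 7.20 against 6.21 and 6.75 (0.80 ± 0.30). The glucose transporter gene Slc2a1 ran the other way, with 6.88 and 7.16 against 7.49 and 7.69 (-0.57 ± 0.17). Ppp1r3c, which targets a phosphatase to glycogen and was chosen after its values were seen, had 6.29 and 6.47 against 4.61 and 4.47 (1.84 ± 0.41).

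Genes of beta-cell identity had less signal in 16-week islets, without a call. Of 30 tested members 0 were called by limma, 8 were lower at an unadjusted p below 0.05, against 4.63% of all genes, and 0 higher. Both 16-week arrays lay below both 6-week arrays in 19, against 21.2% of all genes. The lower signal was not particular to the beta-cell list, whose median was -0.29. A list of other endocrine cells (16 tested, 0 called) had a median of -0.30, with 11 genes lower on both 16-week arrays. In that list 2 genes (12.5%) were lower at an unadjusted p below 0.05 and 0 higher. Mafa, the transcription factor of mature beta cells, stood at 8.24 and 8.16 in 16-week islets, against 9.95 and 9.47 in 6-week islets (-1.51 ± 0.32, adjusted p = 0.160). The GLUT2 gene Slc2a2 had 11.03 and 11.30 against 12.51 and 11.88 (-1.03 ± 0.38). Trpm5, a cation channel that aids insulin release, had 3.49 and 4.43 against 5.03 and 5.05 (-1.08 ± 0.39). The zinc transporter of insulin granules Slc30a8 had 11.32 and 11.16 against 12.16 and 11.86 (-0.77 ± 0.29). The fatty acid receptor gene Ffar1 (-0.66), the maturity hormone gene Ucn3 (-0.66), the oxidase gene Ero1b (-0.53) and the transcription factor gene Nkx6-2 (-0.57) completed the 8.

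The subunit gene Cox6a2 of cytochrome oxidase, from the oxidative phosphorylation list, differed more than any of these, with 7.04 and 6.71 in 16-week islets, against 9.29 and 8.96 in 6-week islets (-2.25 ± 0.47, adjusted p = 0.144). It was the only one of 33 tested members of that list at an unadjusted p below 0.05. The proinsulin convertase gene Pcsk1 had 11.18 and 10.69 against 11.62 and 11.75 (-0.75 ± 0.27). The hormone genes lie near the top of the signal range, where the arrays may not resolve a change. The difference was -0.07 ± 0.16 in Ins2, 0.08 ± 0.17 in the amylin gene Iapp, -0.08 ± 0.14 in Gcg, -0.30 ± 0.15 in Sst and -0.48 ± 0.17 in the pancreatic polypeptide gene Ppy. Pdx1 (-0.48 ± 0.23) and Nkx6-1 (-0.43 ± 0.25) did not pass either threshold.

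The beta-cell list median was -0.29 in db/db islets, -0.57 in lean KsJ islets, where all genes had -0.26, and -0.09 in ob/ob islets. The lean median was -0.25 without lean KsJ 16-week replicate 2, -0.89 without replicate 1 and -0.20 after median centring. The ob/ob median was -0.24 without 6-week replicate 1 and -0.0017 without 6-week replicate 2. The count of 8 was 4 without 16-week replicate 1 and 2 without 6-week replicate 1. It was 2 with the enterocyte mean as a covariate and 3 with the acinar mean added. Mafa kept its sign in all of these fits. In ob/ob islets Mafa had 9.26 and 9.59 at 16 weeks, against 8.92 and 10.04 at 6 weeks.

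Markers of immature or dedifferentiated endocrine cells differed in the other direction. Of 13 tested members 0 were called, and the list median was 0.35. At an unadjusted p below 0.05, 4 were higher, against 2.98% of all genes, and 1 was lower, against 4.63%. The gastrin gene Gast, expressed in fetal islets, stood at 7.37 and 8.69 in 16-week islets, against 6.12 and 6.30 in 6-week islets (1.82 ± 0.56). The cholecystokinin gene Cck had 9.83 and 10.02 against 6.11 and 8.29 (2.72 ± 1.01), and the endocrine progenitor factor gene Neurog3 had 6.97 and 8.34 against 6.39 and 6.64 (1.14 ± 0.41). The thyroxine-binding globulin gene Serpina7 had 10.91 and 10.55 against 7.97 and 9.30 (2.09 ± 0.93). Aldh1a3, a retinaldehyde dehydrogenase that marks failing beta cells, had 10.79 and 10.94 against 8.46 and 9.0, which gave 2.14 ± 1.13 and an adjusted p of 0.733. Its SE rests on the shared spread, which includes 6-week ob/ob arrays at 10.52 and 5.43. The retinol carrier gene Rbp4 was lower, with 8.33 and 8.50 against 9.15 and 9.12 (-0.72 ± 0.30).

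Gast, Cck and Neurog3 are also expressed by intestinal endocrine cells. Of 16 tested goblet, Paneth and enteroendocrine genes 7 were higher at an unadjusted p below 0.05, against 2.98% of all genes, among them Muc2, with 4.95 and 6.58 in 16-week islets, against 2.97 and 3.13 in 6-week islets, and Clca1, with 6.66 and 8.0 against 3.30 and 2.82. This list averaged 5.92 and 6.85 against 4.84 and 4.82. Its count of 7 was 5 without 16-week replicate 1, 1 without 16-week replicate 2, 2 without 6-week replicate 1 and 3 without 6-week replicate 2, and its median of 1.77 was 1.04 without 16-week replicate 2. When enterocyte and acinar means were covariates, 0 immaturity genes were higher at an unadjusted p below 0.05. The count was 2 without 16-week replicate 1, 0 without 16-week replicate 2 and 1 without 6-week replicate 1. Gucy2c (0.09 ± 0.61) and Cd44 (0.35 ± 0.39) had like signal at both ages, with Gucy2c at 10.22 and 10.06 against 9.93 and 10.18.

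**Figure D4:**
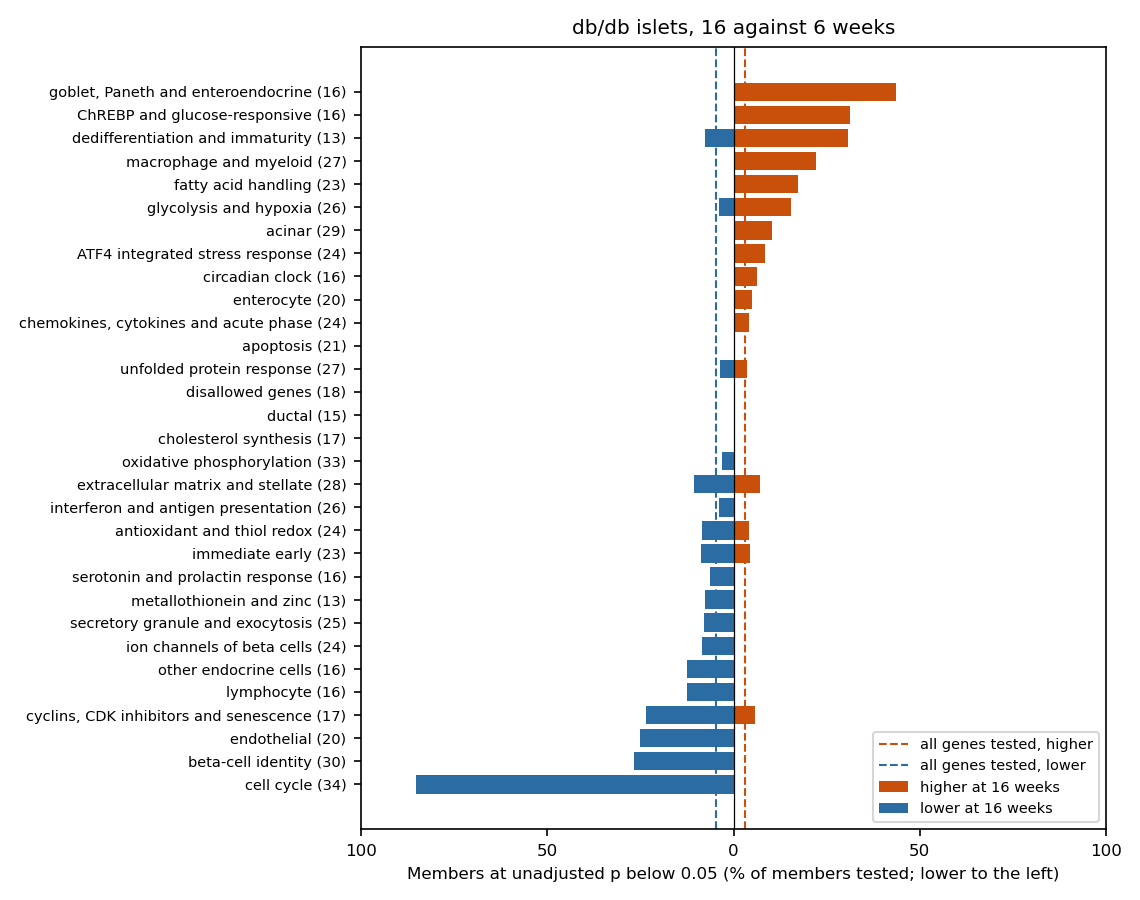
Percent of the tested members of each gene list (number in parentheses) that were higher (orange, right) or lower (blue, left) in 16-week than in 6-week db/db islets at an unadjusted p below 0.05, with dashed lines at the shares of all genes (2.98% and 4.63%). Lists with at least 10 tested members are shown. The cell cycle list reaches 85.3% lower, and beta-cell identity and endothelial genes follow with 26.7% and 25.0%.

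Of 4 genes with more signal in db/db than in lean KsJ islets at 6 weeks, 2 were nearer to lean islets at 16 weeks. They were named with earlier results of these data known. Where high 6-week values entered that choice, a fall from them was favoured in advance. The background potassium channel gene Kcnk9 stood at 4.71 and 5.48 in 16-week islets, against 6.74 and 6.69 in 6-week islets (-1.62 ± 0.32, adjusted p = 0.120). The melanotransferrin gene Meltf had 5.94 and 5.51 against 7.62 and 7.47 (-1.82 ± 0.32, adjusted p = 0.0899), and was called without the lean arrays that stood apart. On the 4 lean KsJ arrays of the same table Kcnk9 lay between 2.75 and 3.33 and Meltf between 4.49 and 4.83, so there the 16-week db/db arrays lay between 6-week db/db and lean arrays. In the separate table of 2 arrays, whose values were made apart from these, Kcnk9 stood at 4.56 in 16-week db/db islets, against 3.06 in 16-week lean KsJ islets, and Meltf at 5.22 against 5.12. The cholesterol carrier gene Star (0.15 ± 0.19) and the kinase gene Hunk (0.25 ± 0.16) did not share this difference.

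Matrix genes differed in both directions. The fibrillar gene Col1a1 stood at 6.88 and 8.19 in 16-week islets, against 6.25 and 5.96 in 6-week islets (1.42 ± 0.34, adjusted p = 0.220), and Col3a1 had 6.68 and 7.21 against 6.48 and 6.16 (0.62 ± 0.27). The basement membrane chains Col4a1 and Col4a2, which islet endothelium secretes, differed by -0.77 ± 0.21 and -0.90 ± 0.27, and the collagen-binding gene Sparc by -0.81 ± 0.26. All 3 were lower on both 16-week arrays, with Col4a1 at 6.37 and 6.58 against 7.04 and 7.46. Of 28 tested matrix and stellate genes 0 were called. At an unadjusted p below 0.05, 2 were higher (7.14%), against 2.98% of all genes, and 3 were lower (10.7%), against 4.63%. Replicate 2 had more fibrillar collagen at 16 weeks, and without it 1 gene was higher and 6 were lower, and without replicate 1 the counts were 7 and 2.

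Endothelial genes were lower without a call. Of 20 tested, 5 had an unadjusted p below 0.05, against 4.63% of all genes, namely Cd34 (-0.69), Robo4 (-0.76), the fenestra gene Plvap (-0.60), Pecam1 (-0.62) and VE-cadherin (Cdh5, -0.73), and the list median was -0.36, or -0.11 without 16-week replicate 1. List means were 6.67 and 7.04 in 16-week islets, against 7.15 and 7.14 in 6-week islets. The count was 0 without 16-week replicate 1, 2 without 6-week replicate 1, 0 without 6-week replicate 2 and 8 without 16-week replicate 2, and 0 with the enterocyte mean as a covariate. In lean KsJ islets the list median was -0.90, where all genes had -0.26. All 20 genes lay below 0 there, and so did 11119 of all 15526 genes. At an unadjusted p below 0.05, 16 of the 20 were lower, against 23.4% of all genes. After median centring the list median was -0.53 with 10 genes lower, against 694 of all 15526. The median difference of the age changes, db/db minus lean KsJ, was 0.54, and 0.17 after median centring. In ob/ob islets the list median was 0.21. For 5 of the 20 genes the age change was more negative in db/db than in ob/ob islets at an unadjusted p below 0.05, against 2.87% of all genes. Fewer did so without ob/ob 6-week replicate 2.

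Stress and other lists had 0 genes called and few at an unadjusted p below 0.05, where all genes had 2.98% higher and 4.63% lower. Shares higher were 3.70% for the unfolded protein response, 8.33% for ATF4, 4.17% for antioxidant, 6.25% for clock and 4.35% for immediate early genes. Shares lower were 3.70%, 0%, 8.33%, 0% and 8.70% in the same order. Each share above 0 rests on 1 or 2 genes. The unfolded protein response list (27 tested, median 0.06) had 1 higher, the sensor gene Ern1 (0.40 ± 0.17), and 1 lower, Ero1b. The ATF4 list (24 tested, median 0.09) had 2 higher, one of them the pseudokinase gene Trib3 (0.66 ± 0.27). Of 24 antioxidant genes Txnip was higher, and the quinone reductase gene Nqo1 (-1.03 ± 0.30, with 4.74 and 4.68 against 5.83 and 5.65) and the secreted superoxide dismutase gene Sod3 (-1.13 ± 0.46) were lower. The clock repressor gene Cry1 (0.90 ± 0.25) was the only 1 of 16 clock genes, and of 23 immediate early genes Egr2 (0.73) was higher and Npas4 (-1.80) was among 2 lower. In the lists of disallowed genes (18 tested), cholesterol synthesis (17) and apoptosis (21) 0 genes were called and 0 had an unadjusted p below 0.05. Of 26 interferon and antigen presentation genes the MHC gene H2-K1 (-0.84 ± 0.35) alone did, and it stood at 6.90 on 16-week replicate 1 and 8.13 on replicate 2.

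The last question was which age changes differed between db/db islets and the other mice. Against lean KsJ islets 1 gene was called (0.00644% of genes). Sh2d5 changed by 1.28 in db/db islets, and in lean KsJ islets its signal was 5.47 and 5.41 at 16 weeks, against 6.18 and 5.98 at 6 weeks. The difference of the changes was 1.92 ± 0.21 (adjusted p = 0.0324, limma). Over 21 alternatives it lay between 1.54 and 2.04 with adjusted p-values from 0.00184 to 0.595, and it was called in 7 of them, not after median centring or quantile normalization. Without either 6-week db/db array or either 6-week lean KsJ array, or without 16-week db/db replicate 1, it was not called. Col3a1 (2.66 ± 0.38), Bcat1 (2.11 ± 0.30), Col1a1 (2.73 ± 0.49), Tmem59l (2.19 ± 0.39) and Dcun1d4 (1.21 ± 0.22) followed with adjusted p-values from 0.115 to 0.361. In Col3a1 most of this lay in the lean islets, where it had 3.83 and 4.40 at 16 weeks, against 5.97 and 6.34 at 6 weeks. On the negative side none of the first 6 genes, Mir187, Amdhd1, Cdca7l, Tnnt3, Pstpip1 and Itgb1bp2, passed over all genes.

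Against ob/ob islets 0 genes were called by limma and 760 had an unadjusted p below 0.05. The smallest p-values belonged to Sh2d5 (1.61 ± 0.21), Gpnmb (4.11 ± 0.70), Lpin2 (1.49 ± 0.26), Dip2a (1.17 ± 0.23), Star (1.33 ± 0.26) and Sorcs1 (2.22 ± 0.44) on the positive side. On the negative side they belonged to Pbk (-2.41 ± 0.39), Knstrn (-2.31 ± 0.39), Kif20a (-1.88 ± 0.34), Ube2c (-2.53 ± 0.47), Mybl2 (-1.30 ± 0.25) and Kif18b (-1.62 ± 0.30), all 6 genes of the dividing cell. Bcat1 was also higher in older ob/ob islets, with 4.76 and 4.67 at 16 weeks, against 3.15 and 3.11 at 6 weeks, and its difference between the models was 0.54 ± 0.30.

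**Figure D5:**
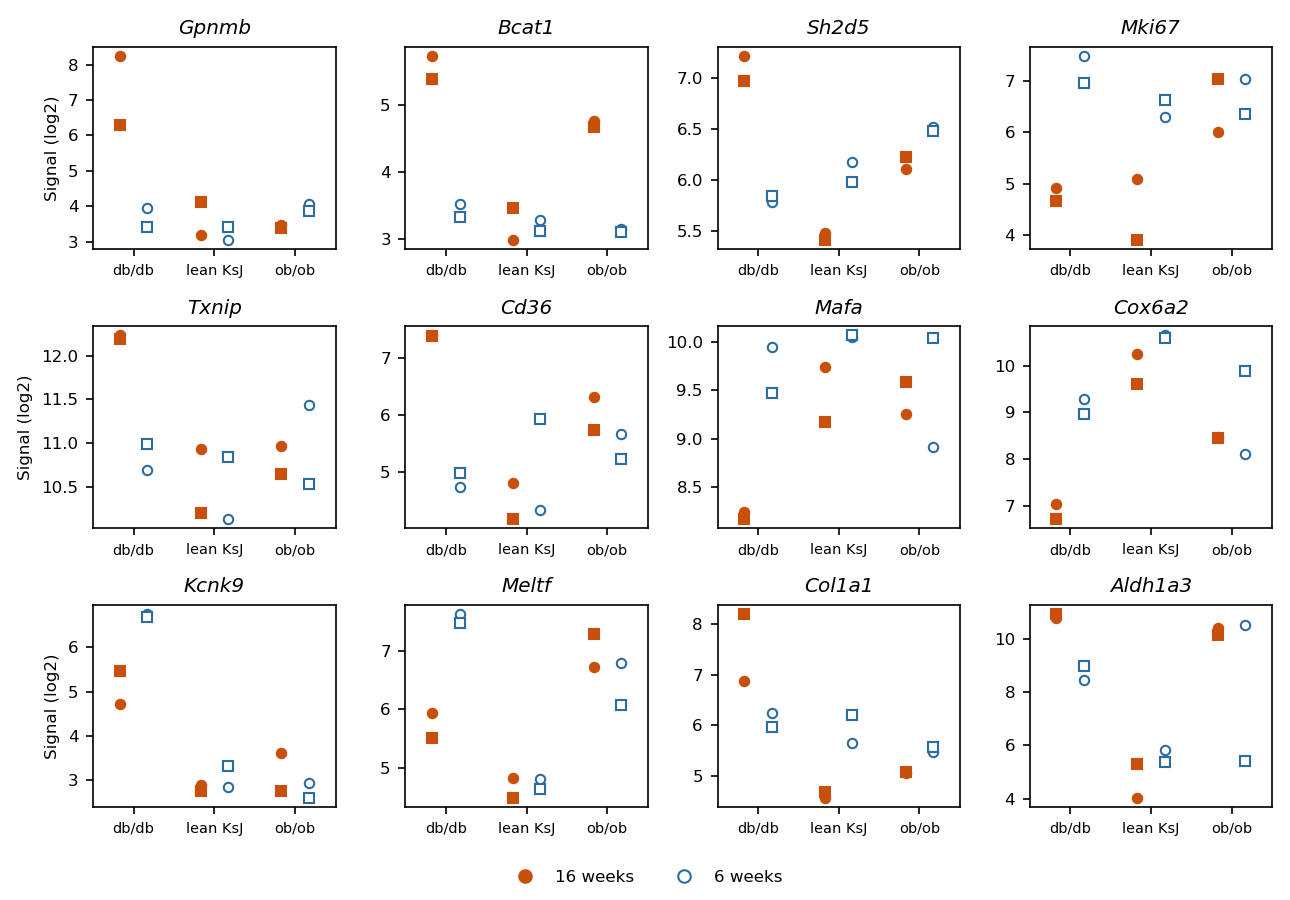
Deposited log2 signal of 12 genes on each array of db/db, lean KsJ and ob/ob islets, 16-week arrays filled orange and left of the open blue 6-week arrays, with circles for replicate 1 and squares for replicate 2. Vertical axes differ between genes. Bcat1 is higher at 16 weeks in db/db and ob/ob islets, Sh2d5 in db/db islets alone of these groups, and 6-week ob/ob replicate 2 stands near the lean arrays in Aldh1a3 (5.43).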

How the data were processed

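Total RNA of hand-picked islets was measured on Affymetrix mouse gene arrays. The deposited tables hold log2 signals per transcript cluster, and MAS5, RMA and Partek are named per the submitters' processing notes, but neither their versions nor their order are stated there. The larger table holds 16 arrays in 8 groups of 2. A separate table of 2 further 16-week arrays entered only 1 alternative fit, and some of its values are quoted. Clusters were named through GEO's platform annotation, with symbols updated by Entrez ID. Of 41034 clusters, 23521 had 1 gene, 1814 several and 15699 none, and the brightest cluster stood for each of 22180 genes. Genes with a mean over all arrays at or above the 30th percentile (2.99) were tested (15526).

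One mean per group was fitted over the 16 arrays with limma 3.58.1 (R 4.3.3), so that all groups share 1 estimate of the spread, and p-values were adjusted by Benjamini-Hochberg over all tested genes with a threshold of 0.05. The script was tested on simulated data. Named genes are, first, the 12 largest calls each way with both 16-week db/db arrays beyond both 6-week arrays, filled by smallest p. Further named genes are up to 5 members of each list by smallest p, a fixed list of islet genes and up to 6 genes each way for each difference of age changes. Genes outside this rule are marked in the text. Of 787 genes in 34 lists, 663 were tested, 42 were below the filter, and 24 in rows of several genes and 58 with no row were not analysed. The comparison, the members and the lists were chosen with earlier results of these data known. Promoter windows came from RefSeq, and figures were drawn with matplotlib 3.10.9 (Python 3.11.15). Alternatives were another filter, normalization, variance model, choice of arrays, covariates for intestinal and acinar signal, the joined tables and leaving out each array.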

Additional observations from a re-analysis of the deposited data

Results flagged for a closer look

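The age change of Sh2d5 differed between db/db and lean KsJ islets by a test of the difference itself. The difference was 1.92 on the log2 scale, with 7.21 and 6.97 in 16-week db/db islets, against 5.79 and 5.84 in 6-week db/db islets. In lean KsJ islets the values were 5.47 and 5.41 at 16 weeks, against 6.18 and 5.98 at 6 weeks. The adjusted p was 0.0324 by limma. Over 21 alternatives the adjusted p ran from 0.00184 to 0.595, and the gene was called in 7 of them, not after median centring or quantile normalization.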

How the results depend on the processing

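No paired analysis was possible because the labels give no replicate numbers, and those used here follow the order of deposition. Against 10 genes called between 16-week and 6-week db/db islets, 5 were called with the filter at the 50th percentile, 6 from the 8 KsJ arrays, 40 with the tables joined, and 6 with the enterocyte mean as a covariate. None (0) were called from the 4 compared arrays alone, with acinar signal as a further covariate, or against a minimum log2 change of 1. Leaving out 1 db/db array gave 0 to 12. Without lean KsJ 16-week replicate 2 and lean 6J 6-week replicate 2 it was 79, and 145 when both 6-week ob/ob arrays were left out too, a setting chosen after seeing the data. The difference from lean KsJ islets, with 1 gene called, gave 0 without the filter, after quantile normalization or median centring, with a trended robust variance and with array weights. This difference also gave 0 with either covariate fit and from the compared arrays alone, which are the 8 KsJ arrays. It gave 5 without the 2 lean arrays and 0 to 3320 when 1 array was left out, the highest without lean KsJ 16-week replicate 1. The difference from ob/ob islets, with 0 called, gave 6 from the compared arrays alone, 1 with the tables joined, 2 without the 2 lean arrays and 0 to 5 when 1 array was left out. The cause of these shifts was not tested. Among single genes, the sign turned in Star (-0.0246, joined tables), Gucy2c (-0.0912, enterocyte covariate), and Csf1r (-0.0069 after quantile normalization, -0.0032 after centring). When 1 array was left out, Csf1r ran from -0.18 to 0.20, Gucy2c from -0.0362 to 0.21, Cd3e from -3.40 to 0.61 and Il1b from -0.44 to 3.64. With 2 arrays a group, low signals and small changes are beyond reach.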
